A study of Rattus norvegicus with 16 samples.

Results

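Gene expression in cells adhering to titanium implants was compared between a surface with nanoscale features (AT-I) and a microrough surface without them (AT-II) at day 2 after placement in rat tibiae. The comparison took in 8 of the 16 arrays of the study, 4 for AT-I and 4 for AT-II, chosen by their titles, and every one of the 17245 genes measured. Arrays 2 and 3 of AT-II differed from each other by less than any other pair of arrays (an SD of 0.0933 on the log2 scale over 4036 bright array rows, against at least 0.167 in the other pairs). They were averaged and counted as 1 sample, so the day 2 comparison had 4 AT-I samples and 3 AT-II samples, 7 of the 15 samples in the fit. Implants were made of commercially pure titanium and sat in male Sprague Dawley rats, 4 rats for day 2 and 4 others for day 4. Every rat carried AT-I in one tibia and AT-II in the opposite tibia, and the 2 implants of a tibia were pooled into a sample. The implants were rinsed after retrieval and RNA was taken from whatever cells stayed attached, with no sorting of cell types. The labels do not say which samples came from the same rat, so p-values measure the spread between samples and ignore any pairing.

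A bone implant first meets blood and marrow, and its surface collects plasma proteins, clot, neutrophils and macrophages. Mesenchymal progenitors arrive next, attach through integrins and focal adhesions, and later lay down bone matrix. Surface texture is known to alter cell shape and adhesion, and this comparison asks what it does to transcripts in the earliest of the sampled stages. Because bulk RNA was measured, fewer cells of a type and less RNA per cell cannot be told apart in any value below.

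Levels are log2 intensities and a difference of 1 between levels is a 2-fold difference. Markers of blood and of bone were both bright in every day 2 sample. The level of S100a9, a neutrophil granule protein, was 13.17, 13.06, 12.72 and 13.08 on AT-I and 12.98, 12.83 and 12.54 on AT-II. Col1a1, the main collagen of bone, was at 10.29, 11.89, 12.04 and 11.95 on AT-I and at 11.01, 11.94 and 12.38 on AT-II. A pair of samples stood apart from the other 5 in the same way, AT-I replicate 1 and AT-II replicate 1. Their mean levels over 22 inflammatory cytokine genes were 8.93 and 8.43, against 6.91 to 7.63 in the others. Over 13 NF-kB subunit and feedback genes they had 10.09 and 9.58, against 8.52 to 8.68, and over 15 osteoblast markers 6.80 and 7.01, against 7.51 to 8.44. Whether these samples came from 1 rat is not given in the labels, and several list medians are given with and without them.

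In the deposited values, with 15 samples weighted equally and not paired, no gene passed the test between the surfaces at day 2. In limma's test with Benjamini-Hochberg adjustment over 17245 genes, 0 genes (0%) had an adjusted p under 0.05, and the smallest adjusted p was 0.128. At an unadjusted p under 0.05 there were 4701 genes, where 862 would be expected from a rate of 5%. Of these, 2154 genes (12.5% of those tested) were higher on AT-I and 2547 (14.8%) were lower. The 4 AT-I samples lay wholly above the 3 AT-II samples in 1522 genes (8.83%) and wholly below them in 1957 (11.3%). With all 16 arrays counted separately, 1041 genes (6.04%) were called higher and 1152 (6.68%) lower at an adjusted p under 0.05, with the smallest adjusted p at 0.04. All 2193 of those genes were among the 4701. Leaving out AT-I replicate 2 gave 711 genes past the adjusted threshold (441 higher), and leaving out the averaged AT-II sample cut the unadjusted count to 1877. With arrays weighted by their quality estimate 3713 genes passed. Differences were modest in size. Their SD over genes was 0.37 (log2), 244 genes were higher by more than 1 and 1 gene was lower by more than 1. Below, counts of higher and lower members of a gene list are at an unadjusted p under 0.05 in limma. With the deposited values and 15 samples, weighted equally and not paired, no gene counted there passed the adjusted threshold.

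The difference between the surfaces followed the level of the gene. Genes were put into 10 equal groups by their mean over the 8 day 4 arrays. The day 2 differences do not use those arrays, but the p-values do, through the shared estimate of the spread. In the 3 dimmest groups the median log2 difference was 0.29, 0.29 and 0.29, and in the next it was 0.17. From the fifth group to the brightest it was -0.13, -0.26, -0.30, -0.28, -0.26 and -0.17. Dim genes were thus higher on AT-I, and genes of middle and high level were lower. In the third group by level, 555 genes were higher at an unadjusted p under 0.05 and 8 lower, and in the seventh group 6 were higher and 567 lower. The brightest group had 8 higher and 256 lower. Lower genes made up 23.0% of the sixth group and 32.9% of the seventh. They made up 32.8% of the eighth, 28.0% of the ninth and 14.8% of the brightest. Higher genes made up 26.9% to 32.2% of the 3 dimmest groups and the next. Below, the level group of a list is the group that holds the median level of its members.

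**Figure D1:**
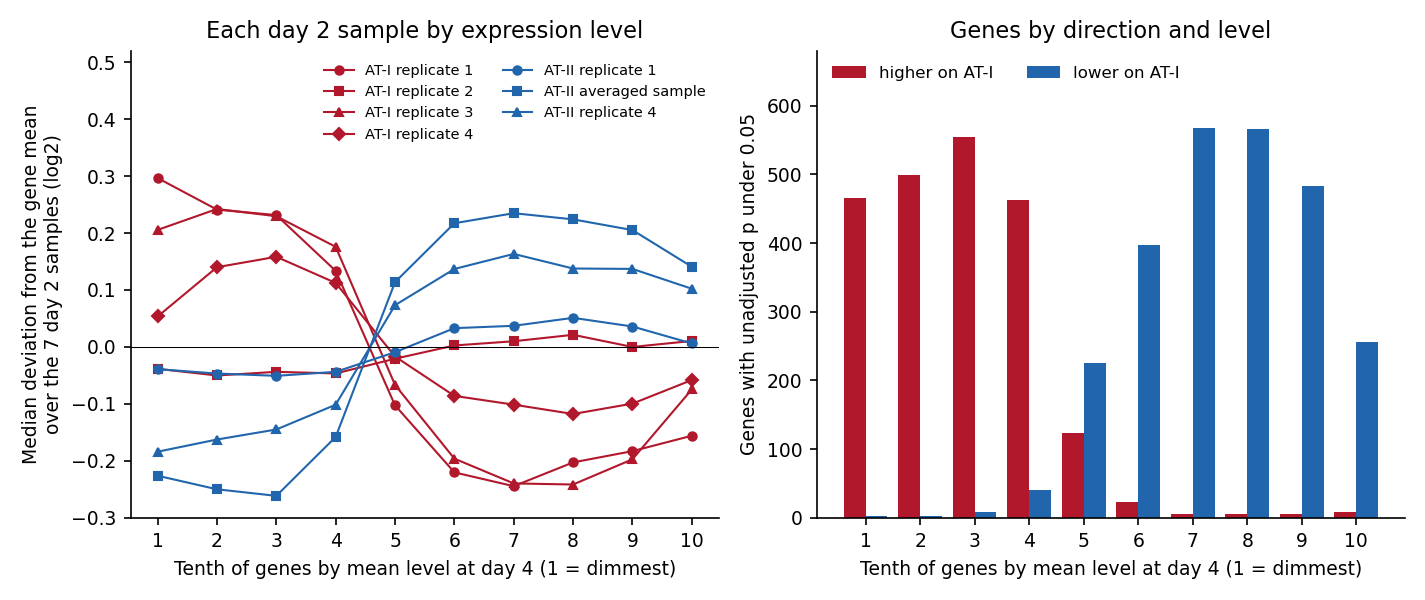
Left, for each of the 7 day 2 samples, the median deviation (log2) of genes from the midpoint of the 2 surface means, by group of genes from dimmest to brightest. The axis label calls this midpoint the gene mean over the 7 samples. Right, the number of genes with an unadjusted p under 0.05 in each direction by the same groups. AT-I replicates 1, 3 and 4 lay above 0 among dim genes and below 0 among bright genes, the averaged AT-II sample and AT-II replicate 4 did the opposite, and AT-I replicate 2 and AT-II replicate 1 stayed near 0.

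The same pattern showed in the width of each array's distribution. The interquartile range over genes was 2.53, 2.98, 2.48 and 2.68 (log2) on AT-I and 3.05, 3.41 and 3.19 on AT-II, so the groups did not overlap. The means were 2.67 ± 0.22 (SD, n = 4) and 3.22 ± 0.18 (SD, n = 3), a difference of -0.55 (two-sided exact permutation p = 0.0571, the smallest p that 4 against 3 samples can give). Among genes brighter than the median gene the direction turned, with AT-I wider by 0.0844 (exact permutation p = 0.171). AT-I replicate 2, the widest of its group, and AT-II replicate 1, the narrowest of its own, were the nearest to each other. At day 4 the ranges differed by -0.22 (exact permutation p = 0.343). When quantile normalization was repeated so that all arrays had one distribution, the median differences of the 10 groups lay between -0.15 and 0.03. They were closer to 0 than before in 9 groups, and in the fifth the median went from -0.13 to -0.15. Then 1247 genes (7.23%) were higher and 1083 (6.28%) lower at an unadjusted p under 0.05, and 1 gene, Ttc9, passed the adjusted threshold. Of the 4701 genes, 1530 kept an unadjusted p under 0.05 in the same direction, 1038 of them higher and 492 lower. Scaling moved the balance further. After centring each array on its median the split was 3288 higher and 799 lower, and after also scaling to a common interquartile range it was 3557 and 552. The median difference of all genes was -0.09 in the deposited values and -0.03 after quantile normalization. With the interquartile range of each array as a covariate, 712 genes had an unadjusted p under 0.05. What sets the width of an array was not tested.

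Promoters of the genes on the 2 sides differed in base composition. Promoter windows of 300 bases, from 250 before to 50 after the start, were taken from RefSeq on the rat assembly GRCr8 and matched 14045 genes (81.4%). Genes were put into 5 equal groups by the GC share of this window, and from the lowest share to the highest their median log2 difference was 0.36, -0.03, -0.14, -0.20 and -0.22. Among the genes lower on AT-I, 0.558% of matched promoters held no CpG (a C followed by a G, counted on 1 strand, which gives the same count on both), against 3.86% of all promoters and 16.6% of those of the higher genes. The median number of CpGs in the window was 23 for lower genes, 16 for all genes and 3 for higher genes. Without the chemosensory receptors described below, the higher genes had a median of 6, with 5.86% lacking a CpG. GC share also moves with level: the median level of the genes at day 4 was 5.21 in the group with the lowest GC share and 7.84 in that with the highest, and after the median of each level group was taken off, their median differences were 0.15 and -0.04. The 150 bases before the start are printed for the lower gene with the smallest p (Pign), the named higher gene with the smallest p that has a matched promoter (L1td1) and the olfactory receptor with the smallest p (Or8b43, singled out after its values were seen). CpGs are in capitals, and each sequence reads 5′ to 3′ on the strand of the gene.
Pign, chr13:22321345-22321494, minus strand: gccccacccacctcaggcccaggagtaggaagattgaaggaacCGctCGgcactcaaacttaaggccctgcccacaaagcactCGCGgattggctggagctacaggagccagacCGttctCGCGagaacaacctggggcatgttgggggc
L1td1, chr5:118488538-118488687, plus strand: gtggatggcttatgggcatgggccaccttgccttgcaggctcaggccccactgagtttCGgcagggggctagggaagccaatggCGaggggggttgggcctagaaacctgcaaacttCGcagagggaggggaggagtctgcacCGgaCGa
Or8b43, chr8:47456846-47456995, plus strand: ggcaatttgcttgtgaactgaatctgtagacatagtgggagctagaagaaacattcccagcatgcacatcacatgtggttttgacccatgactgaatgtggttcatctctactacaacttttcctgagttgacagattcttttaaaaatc
The windows of 300 bases held 19 CpGs for Pign, 18 for L1td1 and 0 for Or8b43, with 62.0%, 60.7% and 37.0% G and C. L1td1 shows that a CpG-rich promoter also occurs among higher genes.

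Chemosensory receptors were the most numerous family among the genes higher on AT-I. These are the odorant, vomeronasal and taste receptors of sensory epithelia, G protein-coupled receptors whose genes are small and mostly coded in a single exon, and they are not used as markers of bone or marrow cells. The class was drawn up after its values were seen. It held 1324 measured genes, 7.68% of all, of which 901 were higher on AT-I at an unadjusted p under 0.05 and 0 were lower. Of all genes 12.5% were higher and 14.8% lower, and in the level group of the class 32.2% and 0.464%. The receptors supplied 41.8% of the genes that were higher at that threshold and 220 of the 244 differences above 1. The mean level over the class was 5.89, 5.07, 5.81 and 5.43 on AT-I and 5.11, 4.57 and 4.81 on AT-II. AT-I replicate 2 lay just under AT-II replicate 1, so the groups overlapped. In single genes the log2 difference ran from -0.33 to 1.85 with a median of 0.73, and 1307 of the 1324 were above 0. The other genes had a median of -0.12.

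The olfactory, vomeronasal and taste receptors each had a median above 0. Of 1127 olfactory receptors 799 were higher at the unadjusted threshold (median log2 difference 0.75), of 145 vomeronasal receptors 67 (0.62) and of 36 taste receptors 24 (0.67). Only 13 genes of the class were brighter at day 4 than the median gene. Taking off the median of each level group left a median of 0.47. After quantile normalization the median of the class was 0.54, with 698 higher and 5 lower, 637 of the higher genes being olfactory and 43 vomeronasal receptors. Leaving out 1 sample at a time gave medians from 0.60 to 0.90. With the interquartile range of each array as a covariate the median was -0.07. At day 4 the class median was 0.39, and 1275 of the 1324 differences were above 0.

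**Figure D2:**
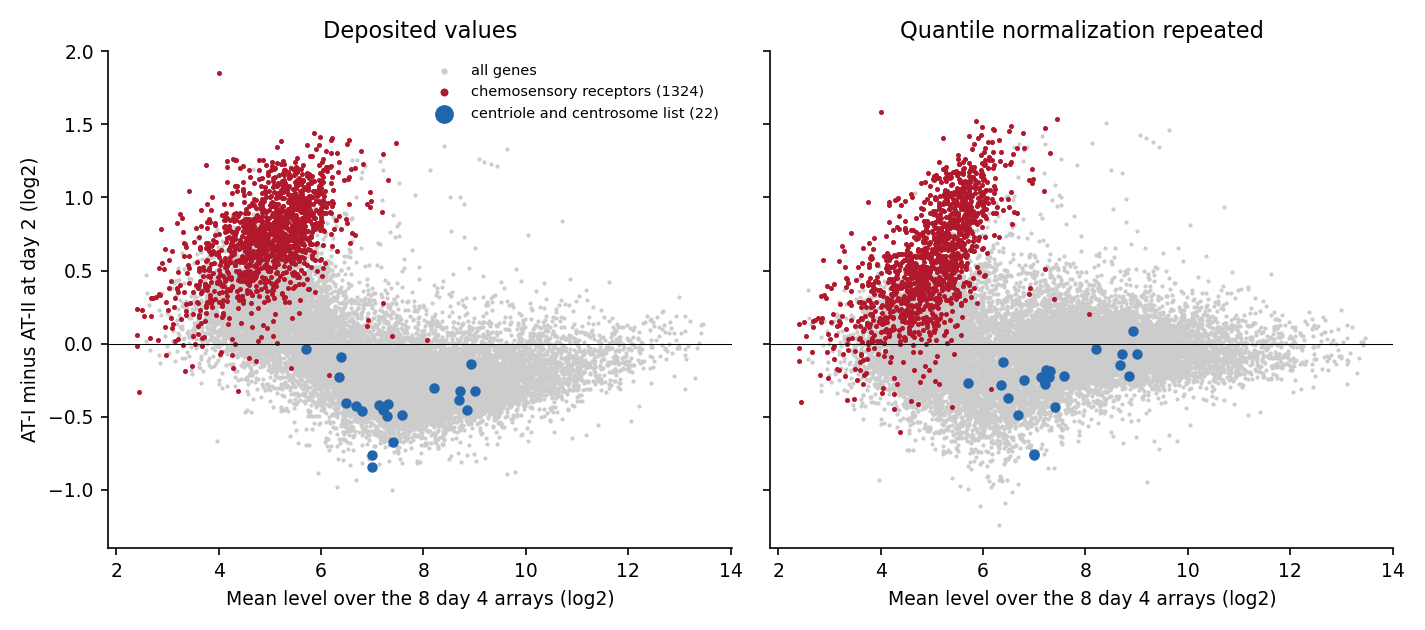
The log2 difference AT-I minus AT-II at day 2 of every gene against its mean level at day 4, for the deposited values (left) and after quantile normalization was repeated (right). Chemosensory receptors (1324 genes) have a median difference of 0.73 and 0.54 in the panels, and the centriole and centrosome list (22 genes) has -0.42 and -0.23.

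Other families of genes that bone is not known for lay on the same side. Of 23 keratin-associated and late cornified envelope genes, which build hair and skin, 14 were higher at an unadjusted p under 0.05 (median log2 difference 0.60). Of 21 prolactin family genes, hormones of pituitary and placenta, 8 were higher (0.45). Of 37 beta-defensins, small antimicrobial peptides of epithelia, 15 were higher (0.29), and 22 of 66 cytochrome P450 genes were higher with 1 lower (0.25). After quantile normalization the medians of the defensins and the cytochromes were 0.01 and 0.04, while those of the keratin-associated genes and prolactins were 0.47 and 0.17. These 4 groups were also drawn up after values were seen. Among the lists drawn up by function or symbol, 19 of 61 keratin and keratin-associated genes were higher and 0 lower (0.30). This keratin list shares keratin-associated genes with the group of 23 above. Of 115 ion channel genes 17 were higher and 1 lower (0.20). The share higher was near the 12.5% of all genes and below the 32.2% of their level group. Of 32 protocadherins 9 were higher and 1 lower (0.17). The level groups of all these families were among the dimmest, where 26.9% to 32.2% of genes were higher. After quantile normalization the median of the keratin list fell to 0.05 and the medians of the ion channels and protocadherins turned to -0.02 and -0.10. With the interquartile range of each array as a covariate the keratin list, the group of 23, the prolactins and the defensins also had medians below 0, from -0.08 to -0.01.

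Single genes on the higher side had small p where the samples of each surface lay close together. Kcnj16, an inward rectifier potassium channel subunit, had log2 levels of 5.11, 4.73, 4.80 and 5.39 on AT-I and 4.40, 3.97 and 4.01 on AT-II. Every AT-I sample was above every AT-II sample, and the difference was 0.88 ± 0.20 (SE; limma, unadjusted p = 0.00039 and adjusted p = 0.128). Krt19, a keratin of simple epithelia, was at 5.69, 5.29, 5.73 and 5.53 on AT-I and at 4.98, 4.80 and 4.82 on AT-II, again without overlap, with a difference of 0.69 ± 0.16. L1td1, an RNA-binding protein derived from a LINE-1 element, was at 5.03, 5.02, 5.20 and 5.47 against 4.62, 4.70 and 4.43, a difference of 0.60 ± 0.12 (unadjusted p = 0.000197). Krtap31-1, a hair keratin-associated protein, was brighter than these, at 8.77, 8.09, 8.74 and 8.52 on AT-I and 7.72, 7.12 and 7.69 on AT-II. Its difference was 1.02 ± 0.24 and grew to 1.22 after quantile normalization. Pnlip, which encodes pancreatic lipase, was higher by 0.70 ± 0.16 and Dcdc2, a doublecortin domain protein, by 0.68 ± 0.16, both without overlap. Rpl37a-ps5, a pseudogene that shares sequence with its parent ribosomal gene and so may share its signal, was higher by 0.69 ± 0.13. At day 4 the differences of Kcnj16, Krt19 and L1td1 were 0.07, 0.16 and 0.19, all smaller than at day 2.

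The largest differences outside the receptors were in members of multicopy families, whose near-identical copies can share probe signal and are uncertain for that reason. Girdinl1 was between 10.14 and 11.37 on AT-I and at 10.07, 8.64 and 9.45 on AT-II. The lowest AT-I sample and the highest AT-II sample nearly touched, and the log2 difference was 1.33 ± 0.47, which turned to -0.15 with the interquartile range of each array as a covariate. Smokxl2, of a testis kinase family, was at 10.08, 8.86, 10.41 and 9.25 against 9.20, 7.48 and 8.22, with overlap, a difference of 1.35 ± 0.49. Rup2 was at 7.81, 6.87, 7.68 and 7.01 against 6.23, 5.85 and 6.19, a difference of 1.25 ± 0.33. Rup2 had a difference of 1.05 at day 4 too. Of 13 genes in families of testis kinases and speckle-type proteins, grouped after values were seen, 7 were higher at the unadjusted threshold. Of all genes 12.5% were higher, and in the level group of these 13 genes 26.9%. The median of the 13 was 0.97 in both the deposited and the quantile normalized values. With the interquartile range of each array as a covariate it was -0.05.

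On the lower side the smallest p values belonged to genes of several housekeeping pathways. Pign, an enzyme that adds ethanolamine phosphate to glycosylphosphatidylinositol (GPI) anchors, had levels of 7.27, 7.25, 7.20 and 7.06 on AT-I and 8.08, 7.87 and 7.63 on AT-II. The AT-I samples were tightly grouped and lay below all AT-II samples, and the log2 difference was -0.67 ± 0.12 (unadjusted p = 5.96e-05 in limma, adjusted p = 0.128). Its list was less uniform. Of 24 GPI anchor genes 5 were lower at the unadjusted threshold and 0 higher (median -0.26, or -0.02 after quantile normalization). Of all genes 14.8% were lower, and in the level group of the list 32.9%. Tbc1d7, which belongs to the tuberous sclerosis complex and so restrains the growth kinase mTORC1, was at 6.65, 6.89, 6.61 and 6.60 against 7.29, 7.32 and 7.33, a difference of -0.63 ± 0.12. Within the TSC and mTORC1 list 7 of 23 genes were lower, against 32.8% in its level group. Rps6kb1, the S6 kinase, was among the 7, at -0.49 ± 0.14. The list median was -0.25 and turned to 0.01 after quantile normalization.

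Ttc9 was the gene that passed after quantile normalization. Its levels were 5.81, 5.64, 5.68 and 5.63 on AT-I and 6.51, 6.15 and 6.51 on AT-II, without overlap. The log2 difference was -0.70 ± 0.13 in the deposited values and -0.93 after quantile normalization (limma's adjusted p = 0.0478). At day 4 it was -0.09. Dlg1, a scaffold protein of cell junctions and polarity, was at 8.25, 8.33, 7.99 and 8.02 against 8.71, 8.75 and 8.69. The AT-II samples were tightly grouped, and the difference was -0.57 ± 0.11, or -0.31 after quantile normalization. Frs2, the docking protein of fibroblast growth factor receptors, was lower by 0.53 ± 0.11, Cisd2, an iron-sulfur protein of the endoplasmic reticulum and mitochondria, by 0.64 ± 0.13, and Ldah, a lipid droplet hydrolase, by 0.69 ± 0.14, each without overlap. Ctns, the lysosomal cystine transporter, had 1 of the largest differences, at 6.10, 6.53, 5.76 and 6.22 on AT-I and 6.92, 7.23 and 7.11 on AT-II. It was lower by 0.93 ± 0.20, with -0.96 after quantile normalization and -0.31 at day 4. Pank3, a pantothenate kinase of coenzyme A synthesis, was lower by 0.81 ± 0.18.

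**Figure D3:**
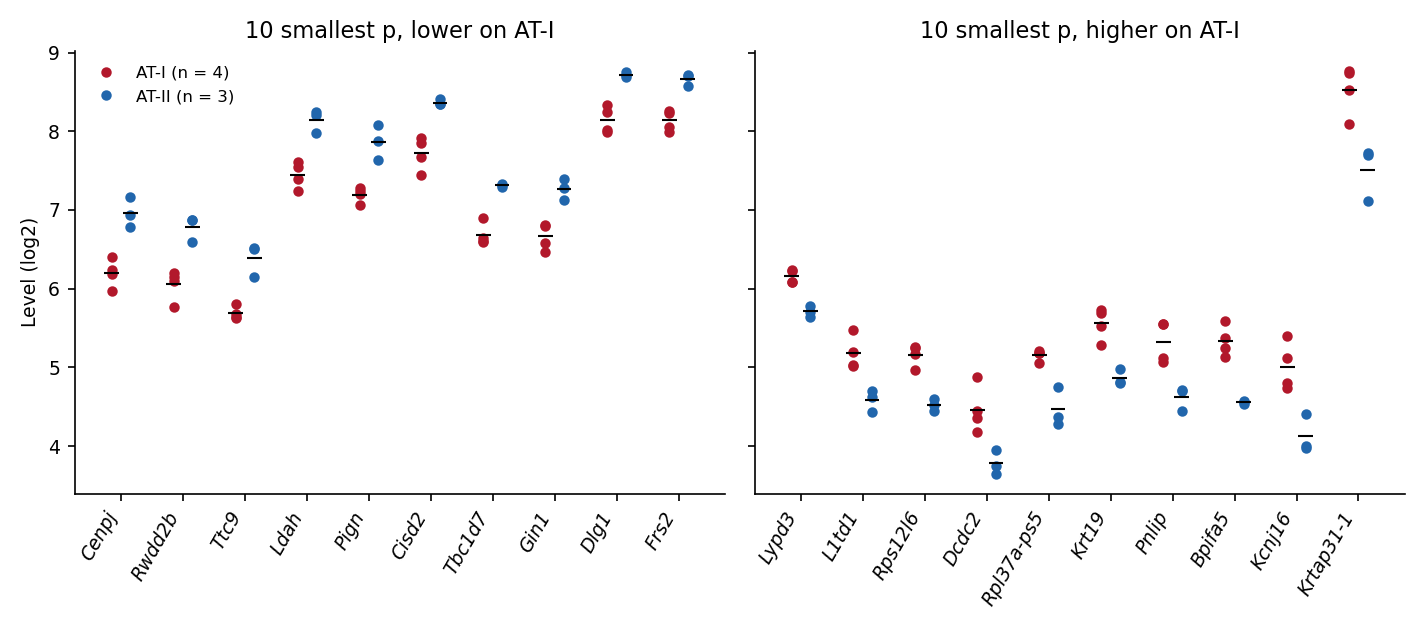
Log2 levels in the 4 AT-I and 3 AT-II samples at day 2 for the genes with the 10 smallest p in each direction, chemosensory receptors aside; bars are group means. The AT-I points lie below the AT-II points for the 10 genes at left and above them for the 10 at right, and the right-hand genes other than Krtap31-1 and Lypd3 lie under 6.

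Centriole and centrosome genes had the lowest median of the 66 lists. Centrioles are the barrels of microtubules that organise the spindle and found the cilium, and they are built once per cell cycle. Of 22 measured members 11 were lower on AT-I at an unadjusted p under 0.05 and 0 were higher, against 14.8% and 12.5% of all genes. In the level group of the list 23.0% were lower and 1.33% higher. The median log2 difference of the list was -0.42. The mean level of the list was 7.27, 7.41, 6.88 and 7.12 on AT-I and 7.55, 7.75 and 7.43 on AT-II. The groups did not overlap, though AT-I replicate 2 and AT-II replicate 4 were nearly level. List means did not overlap in many other lists either, among them integrins, focal adhesion proteins, autophagy, spliceosome and zinc finger genes. Cenpj, which elongates centrioles, was at 6.19, 6.40, 6.24 and 5.96 against 6.78, 7.16 and 6.93. Its difference was -0.76 ± 0.15 (unadjusted p = 9.81e-05) and the same after quantile normalization. Ccp110, which caps centrioles and holds back cilia, was at 6.62, 7.03, 5.94 and 6.39 against 7.34, 7.55 and 7.12, a difference of -0.84 ± 0.27. At day 4 Ccp110 differed by 0.02. Cep135 and Poc5, both structural centriole proteins, were lower by 0.67 ± 0.22 and 0.49 ± 0.15.

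The centriole median was -0.23 after quantile normalization, with 4 members lower at the unadjusted threshold, and -0.18 after the median of each level group was taken off. It ran from -0.50 to -0.27 when 1 sample was left out, and it was 0.03 with the interquartile range of each array as a covariate. Of 32 genes with CEP symbols 17 were lower (median -0.38), against 23.0% in their level group. These genes overlap the centriole list and were grouped after values were seen. Intraflagellar transport genes, which carry cargo along the cilium, had 4 of 15 lower (-0.38), against 23.0% in their level group. Ift70b among them was at 4.32, 5.20, 5.01 and 5.16 on AT-I and 5.40, 6.20 and 6.12 on AT-II, a difference of -0.98 ± 0.29 that grew to -1.24 after quantile normalization. Mitotic genes had 3 of 27 lower and DNA replication genes 3 of 28. Both shares were below the 14.8% of all genes and the 28.0% and 32.8% of their level groups. The medians of the 2 lists were -0.36 and -0.30. After quantile normalization these medians were -0.17 and -0.07, with 1 and 0 genes lower, and both turned above 0 after scaling to a common interquartile range or with that range as a covariate. Leaving out AT-I replicate 3 moved them to -0.19 and -0.17, and leaving out AT-II replicate 4 to -0.54 and -0.46. The spindle motor Cenpe was at 7.51, 7.50, 6.46 and 7.15 against 8.05, 8.23 and 7.63, a difference of -0.82 ± 0.28, and AT-I replicate 3 was the lowest. Over the mitotic list AT-I replicate 3 was also the lowest sample, at 8.10, and AT-II replicate 4, at 8.65, lay below AT-I replicates 1 and 2.

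Zinc finger transcription factors, a large list, supplied the most lower genes of any list. Most C2H2 zinc finger proteins bind DNA, and many silence transposable elements. Of 216 measured genes 48 were lower at the unadjusted threshold and 3 higher (median log2 difference -0.23), against 14.8% and 12.5% of all genes. In the level group of the list 23.0% were lower. After quantile normalization 43 of the 216 were lower and 2 higher (-0.14), against 6.28% and 7.23% of all genes. Zfp451 was at 6.78, 7.03, 6.72 and 7.04 against 7.20, 7.44 and 7.50, without overlap, a difference of -0.49 ± 0.12. Zfp74 had a larger difference, -0.70 ± 0.20, and -0.94 after quantile normalization, with 1 AT-II sample inside the AT-I range. Spliceosome proteins, which remove introns, had 14 of 44 genes lower and 1 higher (median -0.17), against 28.0% lower in their level group. After quantile normalization 0 of the 44 were lower, 2 were higher and the median was 0.03. Autophagy genes, which recycle cell contents, had 9 of 23 lower (-0.26), against 32.8% of their level group. After quantile normalization 0 of the 23 were lower (-0.04). Gabarapl1, an autophagosome protein, was lower by 0.62 ± 0.19. Coat proteins and cargo receptors of transport from endoplasmic reticulum to Golgi had 9 of 22 lower (-0.28), against 14.8% of their level group. Lman1, a lectin that carries coagulation factors, was at -0.45 ± 0.13. After quantile normalization 0 of the 22 were lower and the median was -0.10, and scaling to a common interquartile range turned it to 0.44. Of 13 cholesterol synthesis genes 6 were lower (-0.27), including Nsdhl, a sterol dehydrogenase, at -0.61 ± 0.16. In their level group 23.0% were lower. Of the 13 genes 3 were lower at the unadjusted threshold after quantile normalization.

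Genes through which cells hold to and sense a surface were measured in 3 lists. Integrins, the receptors for matrix, had 4 of 20 members lower and 1 higher (median log2 difference -0.20), against 32.8% lower in their level group. Focal adhesion proteins had 4 of 26 lower and 0 higher (-0.19), a share near the 14.8% of all genes and below the 28.0% of their level group. Ptk2, the focal adhesion kinase, was at 7.24, 7.32, 7.40 and 7.23 on AT-I and 7.60, 7.70 and 8.00 on AT-II. Its samples did not overlap and the difference was -0.47 ± 0.12, or -0.19 after quantile normalization. The YAP list of mechanically regulated genes had 5 of 13 lower (-0.27), against 32.9% in its level group. Lats2, the kinase that keeps YAP out of the nucleus, was at 6.03, 6.61, 6.39 and 6.65 against 6.99, 6.92 and 7.29, a difference of -0.64 ± 0.16 that was -0.59 after quantile normalization and -0.28 at day 4. After quantile normalization the 3 list medians lay between -0.09 and -0.07, and 2 YAP genes and 0 genes of the other 2 lists were lower at the unadjusted threshold.

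Few genes of bone signalling and matrix were past the unadjusted threshold. Of 32 BMP and TGF-beta genes 5 were lower and 0 higher (median log2 difference -0.29), a share near that of all genes and below the 23.0% of their level group. The median was -0.16 without AT-I replicate 1 and -0.20 without both samples numbered 1. Bmp2, an inducer of bone, was at 4.69, 5.77, 5.38 and 5.16 on AT-I and 5.67, 5.91 and 6.12 on AT-II, with overlap, a difference of -0.65 ± 0.23. In the Wnt list 4 of 30 genes were lower and 2 higher (-0.17). The share lower was near the 14.8% of all genes and below the 23.0% of its level group. Dkk3, a secreted protein of the Dickkopf family, was among the lower genes, by 0.53 ± 0.14 without overlap. Fibrillar collagens and provisional matrix had 1 of 22 lower and 0 higher (-0.26). That median was 0.08 without AT-I replicate 1, -0.59 without AT-II replicate 1 and -0.25 without both. It also turned above 0 without AT-II replicate 4, and it was 0.31 after scaling to a common interquartile range.

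Cell type markers gave few differences. Osteoblast markers had 0 of 15 genes past the unadjusted threshold in either direction, and their mean level overlapped between the surfaces, at 6.80, 8.04, 7.51 and 7.85 on AT-I and 7.01, 8.07 and 8.44 on AT-II. Bglap, which encodes osteocalcin, was at 6.21, 7.92, 6.30 and 8.54 against 7.00, 7.71 and 8.19, a difference of -0.39 ± 0.65. Its spread within a surface was larger than the gap between surfaces. Of 8 osteoclast markers 0 passed in either direction, and Ctsk, the collagen-cleaving cathepsin, differed by -0.26 ± 0.53. Neutrophil markers had 1 of 16 higher, S100a8, a partner of S100a9, at 12.39, 12.31, 11.91 and 12.16 against 12.14, 11.84 and 11.33. S100a8 differed by 0.42 ± 0.19 with overlap, and the mean of the list ran from 10.52 to 11.37 on AT-I and from 10.67 to 11.29 on AT-II. Macrophage and monocyte markers had 1 of 16 higher and 1 lower. Their mean was 8.99 in AT-I replicate 1 and 9.64 to 9.70 in the other AT-I samples, against 9.43 to 9.87 on AT-II. Erythroid markers had 0 of 12 past the threshold. Among the lower genes Cd5l, a protein secreted by macrophages, was at 5.75, 7.60, 7.01 and 7.48 against 8.00, 7.90 and 7.99. AT-I replicate 1 was well below the rest, the AT-II samples were tightly grouped, and the means were 6.96 ± 0.85 (SD, n = 4) and 7.96 ± 0.05 (SD, n = 3), with an unadjusted p of 0.0315 in limma.

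Stromal, adipocyte and endothelial markers had the lowest medians among the cell types. Of 11 endothelial markers 4 were lower and 0 higher (median log2 difference -0.34), against 32.9% lower in their level group. After quantile normalization 3 of the 11 were lower (-0.18). The mean of the list was 7.26, 7.42, 7.07 and 7.29 on AT-I and 7.89, 7.54 and 7.37 on AT-II, so AT-II replicate 4 lay inside the AT-I range. The median stayed below 0 in all 28 other settings, but shrank to -0.08 without AT-II replicate 1. Tek, the angiopoietin receptor of endothelial cells, was at 7.71, 7.45, 7.06 and 7.32 against 8.53, 7.94 and 7.76. Its samples did not overlap and it differed by -0.69 ± 0.19. Stromal and osteoprogenitor markers had 4 of 12 lower and 0 higher (-0.37), against 28.0% lower in their level group. After quantile normalization 1 of these markers was lower (-0.21). Their mean was 7.68, 8.23, 8.08 and 8.18 on AT-I and 8.32, 8.33 and 8.47 on AT-II, so the groups did not overlap. The stromal median was -0.24 without AT-I replicate 1 and turned to 0.06 after scaling to a common interquartile range. Pdgfrb, a receptor of perivascular and stromal cells, was lower by 0.48 ± 0.15 without overlap, and Prrx1, a transcription factor of limb mesenchyme, by 0.63 ± 0.26 with overlap. Of 11 adipocyte markers 0 were past the threshold in either direction (-0.35), and their mean ran from 6.99 in AT-I replicate 1 to 8.37 on AT-I and from 7.76 to 8.31 on AT-II. The adipocyte median was 0.08 without AT-I replicate 1, -0.52 without AT-II replicate 1 and -0.18 without both, and it turned above 0 also after scaling to a common interquartile range and with that range as a covariate. B lineage markers had 1 of 11 higher and 0 lower (-0.04), with 4 differences above 0 and 7 below. Cartilage markers had 1 of 11 higher and 0 lower (0.10), with 9 differences above 0 and 2 below. Of all genes 12.5% were higher. Pax5, a B cell transcription factor, was at 7.07, 7.07, 7.17 and 7.12 against 6.63, 6.68 and 7.00, a difference of 0.34 ± 0.12. Col9a1, a cartilage collagen, was at 6.50, 6.16, 6.50 and 6.42 against 5.92, 5.89 and 5.92, a difference of 0.49 ± 0.16. Neither gene's samples overlapped, and the differences after quantile normalization were 0.53 and 0.51. Neuron markers, which stand for a cell not expected in these samples, had 5 of 14 higher (0.13), against 28.9% in their level group. Gad1, an enzyme of GABA synthesis, was among these markers, at 0.58 ± 0.17. Their mean level ran from 5.00 to 5.11 on AT-I and from 4.80 to 4.98 on AT-II, and their median turned to -0.16 after quantile normalization.

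**Figure D4:**
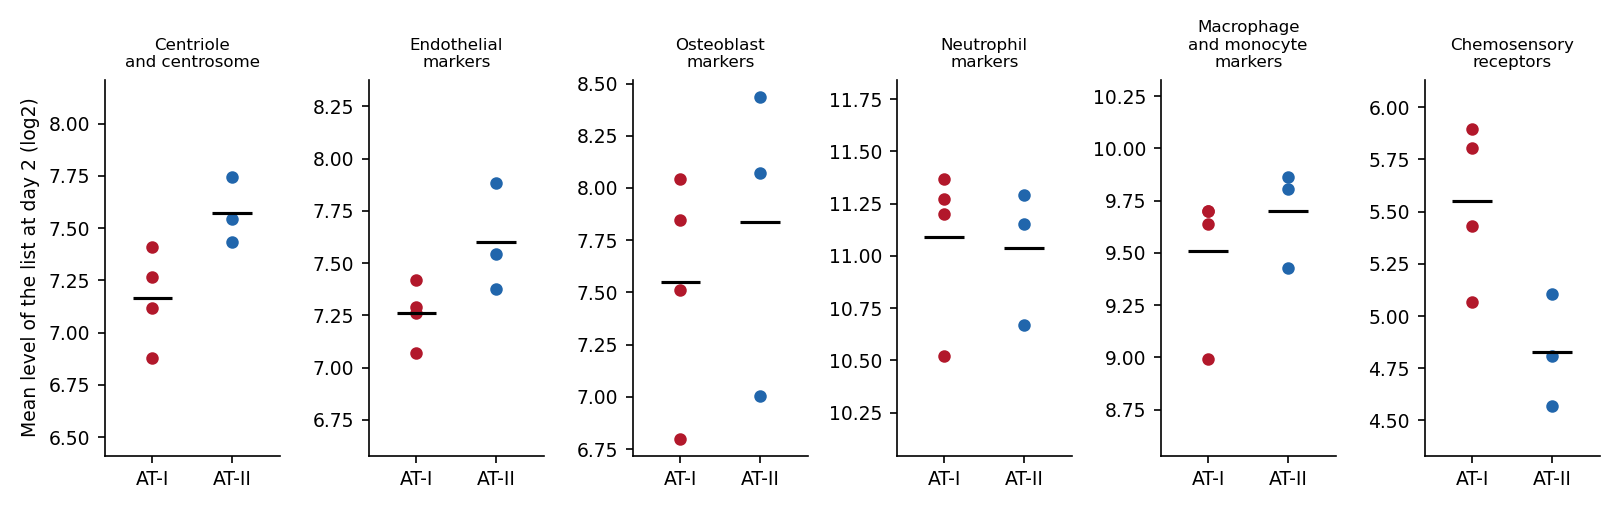
Mean log2 level over the members of 6 lists in each day 2 sample (points) and the mean of each surface (bars), with every axis spanning the same range of log2 units. The centriole and centrosome means do not overlap between AT-I and AT-II, and those of the other 5 lists do. Several lists not shown also have means that do not overlap.

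Inflammatory genes varied more between samples than between surfaces. The cytokine list had a median log2 difference of 0.26 with 1 of 22 genes higher and 0 lower. Its mean was 8.93, 7.06, 7.41 and 7.63 on AT-I and 8.43, 7.02 and 6.91 on AT-II, with overlap. The median was -0.04 without AT-I replicate 1, 0.58 without AT-II replicate 1 and 0.26 without both. Ptgs2, the inducible cyclooxygenase of prostaglandin synthesis, was at 11.54, 8.30, 8.62 and 9.22 against 10.76, 7.43 and 6.78. Its difference of 1.10 ± 0.86 was no larger than the spread within each surface (unadjusted p = 0.223 in limma). Lif, a cytokine of the interleukin-6 family, was the member past the unadjusted threshold, at 6.90 ± 0.64 (SD, n = 4) against 6.15 ± 0.28 (SD, n = 3), with AT-I replicate 2 inside the AT-II range and a difference of 0.75 ± 0.30. Chemokines had 1 of 27 higher and 0 lower (0.15, with 0.05 without AT-I replicate 1, 0.27 without AT-II replicate 1 and 0.23 without both). The NF-kB list had 0 of 13 in either direction (0.06), with -0.32 without AT-I replicate 1, 0.37 without AT-II replicate 1 and -0.02 without both. Interferon response genes had 1 of 24 higher and 0 lower (0.00, and 0.24 after quantile normalization). That gene, Isg15, an interferon-induced ubiquitin-like protein, was at 10.08, 8.61, 9.09 and 8.52 against 9.18, 7.75 and 7.35. It differed by 0.98 ± 0.43, between 0.61 and 1.52 with 1 sample left out, and by -0.27 at day 4.

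In the deposited values ribosome and respiration genes kept closer to 0 than other genes as bright. Of 115 cytosolic ribosomal protein genes, which include near-identical copies, 6 were higher and 1 lower (median log2 difference 0.09). That median stood 0.21 above that of genes of the same level. Of all genes 12.5% were higher and 14.8% lower. After quantile normalization 20 of the 115 were higher and 5 lower (0.095), against 7.23% and 6.28% of all genes. Respiratory chain and ATP synthase subunits had 2 of 78 higher and 1 lower (-0.01), 0.19 above genes of their level. After quantile normalization 10 were higher and 0 lower (0.12). Both list medians then lay farther from 0 than those of their level groups, -0.04 and -0.05. The solute carriers, the largest list at 313 genes, were split, with 45 higher, 40 lower and a median of -0.11.

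Across the 66 lists (17 of them cell type markers), medians followed level as single genes did. Of 55 lists whose members were typically brighter than the median gene 48 had a median below 0, and of 11 dimmer lists 10 had a median above 0. After quantile normalization 18 of the 66 medians had the other sign, 13 of them going from below to above 0. Scaling to a common interquartile range turned 39 of the 49 medians below 0 to above it, and centring alone turned 13.

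**Figure D5:**
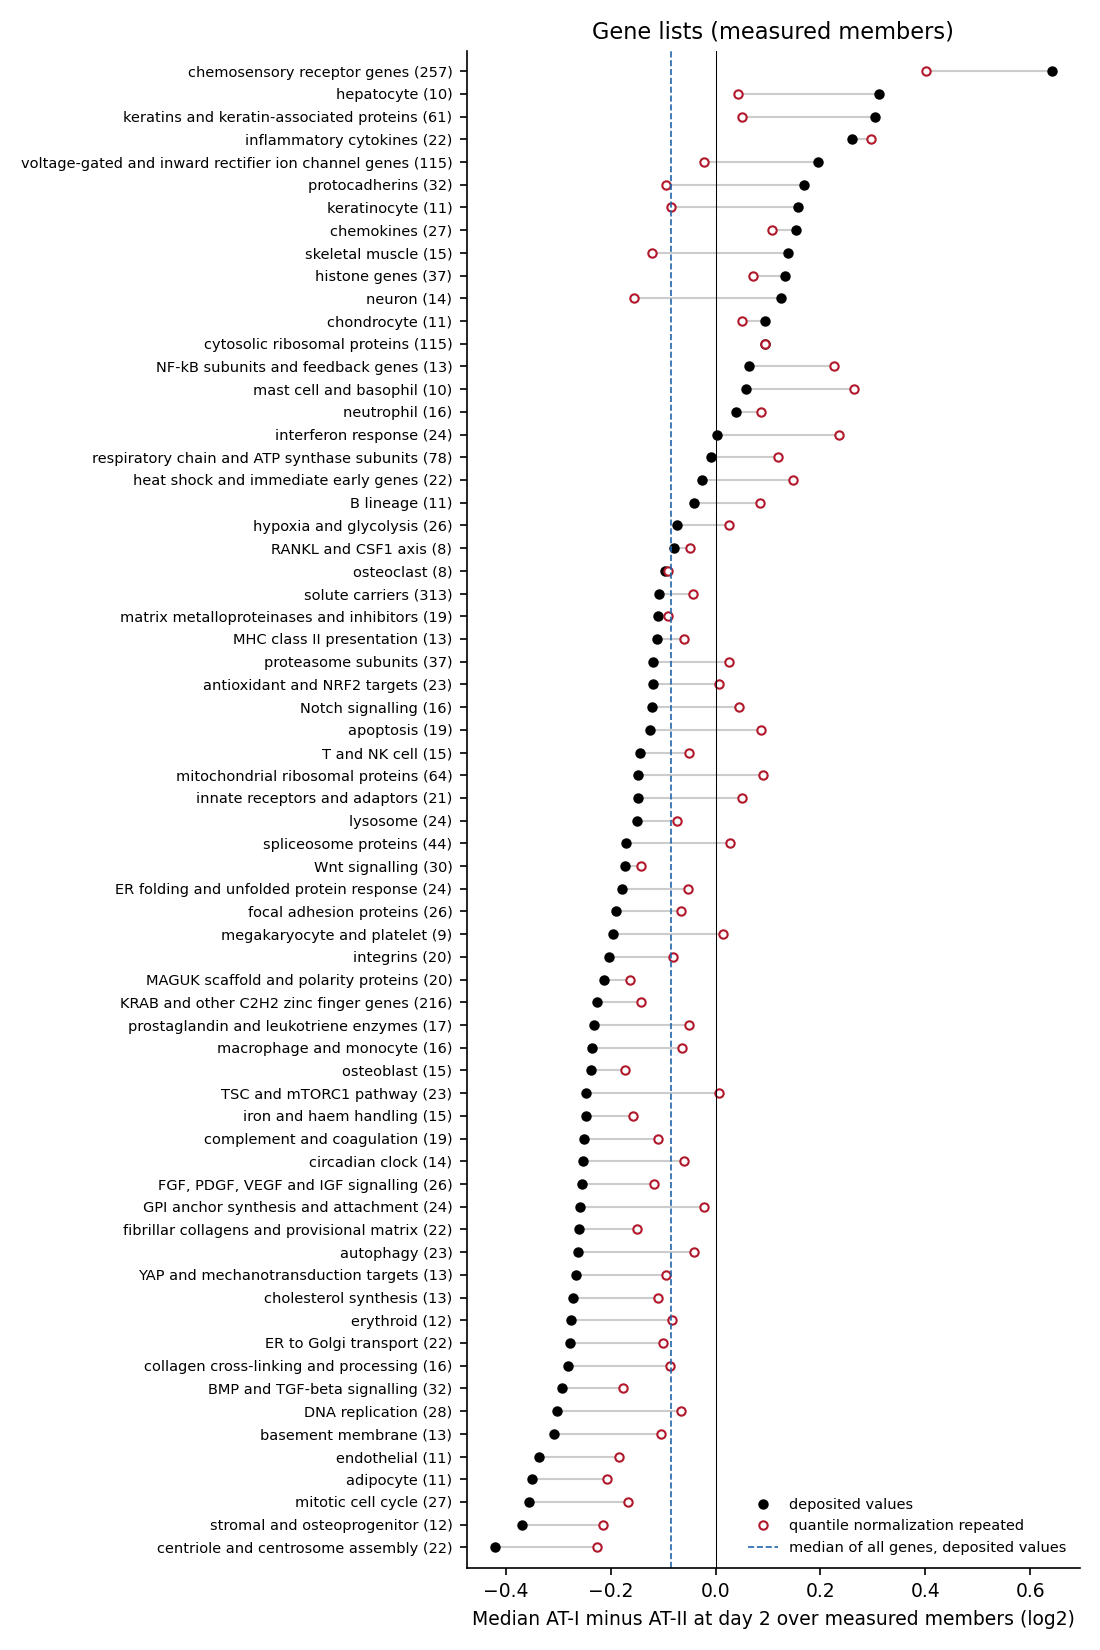
Median log2 difference AT-I minus AT-II at day 2 over the measured members of the 66 lists (member number in parentheses), in the deposited values (filled) and after quantile normalization was repeated (open), with the median of all genes (-0.09) as a dashed line. Centriole and centrosome genes are lowest at -0.42 and chemosensory receptors, by the symbols first listed (257 genes), highest at 0.64.

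The day 4 arrays, which came from other rats, gave a separate set of samples for the same surfaces. Differences were smaller there, with an SD over genes of 0.21 against 0.37 at day 2, and 0 genes passed the adjusted threshold (687 at an unadjusted p under 0.05). Over 17245 genes the day 2 and day 4 differences had a Pearson r of 0.685, with no array in common. Genes are not independent replicates, and the pattern by level was shared, since the median differences of the 10 level groups at day 4 ran from 0.15 for the dimmest to -0.12 in the seventh. Once the median of each level group was taken off r was 0.530, and after quantile normalization it was 0.556, or 0.364 without the chemosensory receptors. Of 2616 genes with an unadjusted p under 0.05 and no overlap at day 2, 2211 (84.5%) had the same sign at day 4, against 76.0% of all genes. After quantile normalization it was 924 of 1153 (80.1%), against 61.6% of all genes. In the test of whether the surface difference at day 2 itself differed from that at day 4, 0 genes passed in limma (707 at an unadjusted p under 0.05, smallest adjusted p 0.924).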

How the data were processed

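Members and gene lists were chosen with earlier results of these data known, and 11 lists were added after their values were seen. The submitters' processing notes name RMA and Affymetrix Expression Console, and the values the authors deposited are taken as log2 levels, with the base inferred from RMA. Software versions and build were not given in the sources used here. Affymetrix Rat Gene 1.1 ST arrays were used. Of 29214 array rows, 18644 named 1 gene in the platform annotation, and the brightest row was kept for each of 17245 genes (879 had several rows). Groups came from sample titles.

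Samples were compared with limma 3.58.1 in R 4.3.3 (a moderated linear model of 4 group means on 15 samples, without covariates; two-sided p, Benjamini-Hochberg over all genes). Single values per array were compared by exact permutation with scipy 1.17.1. The script was tested on simulated data. Named genes were those with the 10 smallest p per direction and the members of each list with the smallest p (at most 4). The 10 largest differences per direction were also named among genes without overlap at an unadjusted p under 0.05, and among those of them that also passed it after scaling. The same was done among genes with an adjusted p under 0.05 with all 16 arrays, whether or not samples overlapped. Receptors and symbols without a name were left out. The number of samples limits precision. There were 28 other settings, 23 planned and 5 added after the data were seen. Gene span stood in for protein length, which was not analysed here. 1 planned list is not reported here.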

Additional observations from a re-analysis of the deposited data

Results flagged for a closer look

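Among the 130 values examined (52 genes, the sample means of 77 lists and the interquartile range), 6 had an AT-I sample far from the other 3 of its group by Dixon's criterion, and chance gives about 1 in 20. AT-I replicate 1 was the sample in 3 of them. It was low in the mean of the macrophage and monocyte markers (8.99) and of the BMP and TGF-beta list (6.77), and high in that of the NF-kB list (10.09). AT-I replicate 4 was low in Rpl37a-ps5 (5.05) and high in the mean of the solute carriers (6.82). AT-I replicate 2 was high in Tbc1d7 (6.89), on the side towards the AT-II samples.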

How the results depend on the processing

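The number of genes with an adjusted p under 0.05 between the surfaces at day 2 was 0 with 15 samples, weighted equally and not paired. It was 2193 with all 16 arrays, 3713 with array weights, 1 (Ttc9) with quantile normalization repeated on 15 samples or on all 16 arrays, and 0 to 711 leaving out 1 sample, 711 without AT-I replicate 2. The deviations of same-numbered samples had r of 0.64, 0.51, -0.26 and 0.15 at day 2 for numbers 1 to 4. Arrays 2 and 3 of AT-II nearly matched each other, so these values cannot show whether the numbers pair samples of a rat. The labels do not say either. With a replicate block the count was 3823 on all 16 arrays, 1254 with the averaged sample numbered 3 and 0 with it numbered 2. The unadjusted count of 4701 became 7485 with a replicate block on all 16 arrays, 7109 with array weights, 2466 among genes brighter than the median gene, 2330 with quantile normalization repeated, 2079 with cyclic loess, 1818 with quantile normalization of the day 2 samples and 712 with the interquartile range as a covariate, and 1877 to 6003 leaving out 1 sample. The difference in interquartile range was -0.598 with all 16 arrays (exact permutation p = 0.0286), 0.0844 among brighter genes, and -0.65 to -0.45 leaving out 1 sample. The test of day 2 against day 4 gave 0 genes in every setting it was run in. Of 52 genes named by size or p, 39 kept their sign in every other setting. The other 13 turned only with the interquartile range of each array as a covariate. Each of the 52 passed the adjusted threshold in at least 1 setting. Some were named for passing with all 16 arrays, so that count was partly fixed in advance. The causes were not tested.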

Other observations

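Array rows that name several genes or none numbered 10570 and were in no comparison above. At day 2, 2467 of them (23.3%) had an unadjusted p under 0.05 in limma's test, 1988 higher and 479 lower on AT-I, and 0 had an adjusted p under 0.05. Genes also differed by their span on the GRCr8 assembly. In 5 equal groups from the shortest span to the longest the median log2 difference was 0.26, -0.06, -0.15, -0.21 and -0.20. The shortest genes were also the dimmest, with a median level of 5.45 against 7.30 for the longest, and their median was 0.17 after that of each level group was taken off.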
